A study of Pleurotus ostreatus with 9 samples.

Results

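The heme peroxidases of the white-rot fungus Pleurotus ostreatus, the oyster mushroom, were followed across 9 RNA-seq libraries of mycelium. They were taken as the genes whose deposited description holds the word "peroxidase" or "DyP" and does not name glutathione or thioredoxin, which gave 15 of the 10682 genes in the deposited table. By those descriptions they are 3 versatile peroxidases, 5 short manganese peroxidases, 3 dye-decolorizing (DyP-type) peroxidases, 3 heme-thiolate peroxidases and 1 cytochrome c peroxidase. Identifiers are given as the deposited table spells them. The rule used the descriptions and no expression value.

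White-rot fungi break down lignin, the aromatic polymer of wood, with secreted heme enzymes that use hydrogen peroxide as oxidant. Manganese peroxidases oxidise manganese ions that in turn attack phenolic structures, and versatile peroxidases combine this with the direct oxidation of aromatic compounds. Dye-decolorizing peroxidases form a separate heme family named for their activity on synthetic dyes, heme-thiolate peroxidases (the family of chloroperoxidase and the unspecific peroxygenases) insert oxygen into substrates, and cytochrome c peroxidase removes peroxide in mitochondria.

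All 9 cultures were of strain GEMB-PO1, grown at 28 °C with shaking at 180 rpm in a medium of glucose (20 g/L), peptone and yeast extract (5 g/L each), and harvested on day 3. The control group (3 libraries) received no chemical. The BBP group (3 libraries) received butyl benzyl phthalate, a phthalate ester plasticizer, and the third group (BBP with PB, 3 libraries) received the same phthalate together with 1 mM piperonyl butoxide, an inhibitor of cytochrome P450 enzymes. The labels conflict on the BBP dose, with 50 mg/L given for the series and 200 mg/L given in the protocol of each sample, so it is not settled here. No group received piperonyl butoxide alone, so the inhibitor was measured only in the presence of BBP, and all samples carry the same batch label. Total counts ran from 38098599 to 49161706 per library. The hydrophobin Vmh2 of vegetative mycelium (PLEOSDRAFT_1091049), a marker of the labelled tissue, was at 570 to 843 FPKM (fragments scaled by transcript length and library depth) in the controls, at 10.5 to 102 FPKM with BBP and at 0 to 0.767 FPKM with BBP and PB, while a fruit-body hydrophobin (PLEOSDRAFT_47325) did not exceed 0.613 FPKM in any library. The part that this marker's difference plays in the results was not tested. In bulk RNA, fewer cells expressing a gene and less RNA of it per cell cannot be told apart.

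The 15 genes ranged in level from 655 FPKM to 0.154 FPKM over the libraries, and each had at least 10 counts in every library. In the controls the order began with a DyP-type peroxidase (PLEOSDRAFT_1069077, 565 ± 122 FPKM, SD, n = 3), a heme-thiolate peroxidase (PLEOSDRAFT_1111884, 353 ± 312 FPKM) and cytochrome c peroxidase (PLEOSDRAFT_1096819, 300.4 ± 24.9 FPKM). The control libraries of PLEOSDRAFT_1111884 (31.7 to 655 FPKM) overlapped those of both others, so its place among these 3 is not resolved. Those of PLEOSDRAFT_1069077 (424 to 636 FPKM) all lay above those of PLEOSDRAFT_1096819 (283 to 329 FPKM). The remaining heme-thiolate genes and the versatile peroxidase PLEOSDRAFT_1089895 followed at 28.1 to 64.0 FPKM, and the other 9 genes lay at or below 5.22 FPKM. Of the 14 neighbouring pairs in this order, 10 overlapped in their control libraries and 4 stood apart. All 5 short manganese peroxidases were among the weakly expressed genes. A mean of at least 1 FPKM over all 9 libraries was required for the tests, and 12 of the 15 genes passed it. The short manganese peroxidases PLEOSDRAFT_1041740 and PLEOSDRAFT_199510 and the versatile peroxidase PLEOSDRAFT_1113241 did not.

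**Figure D1:**
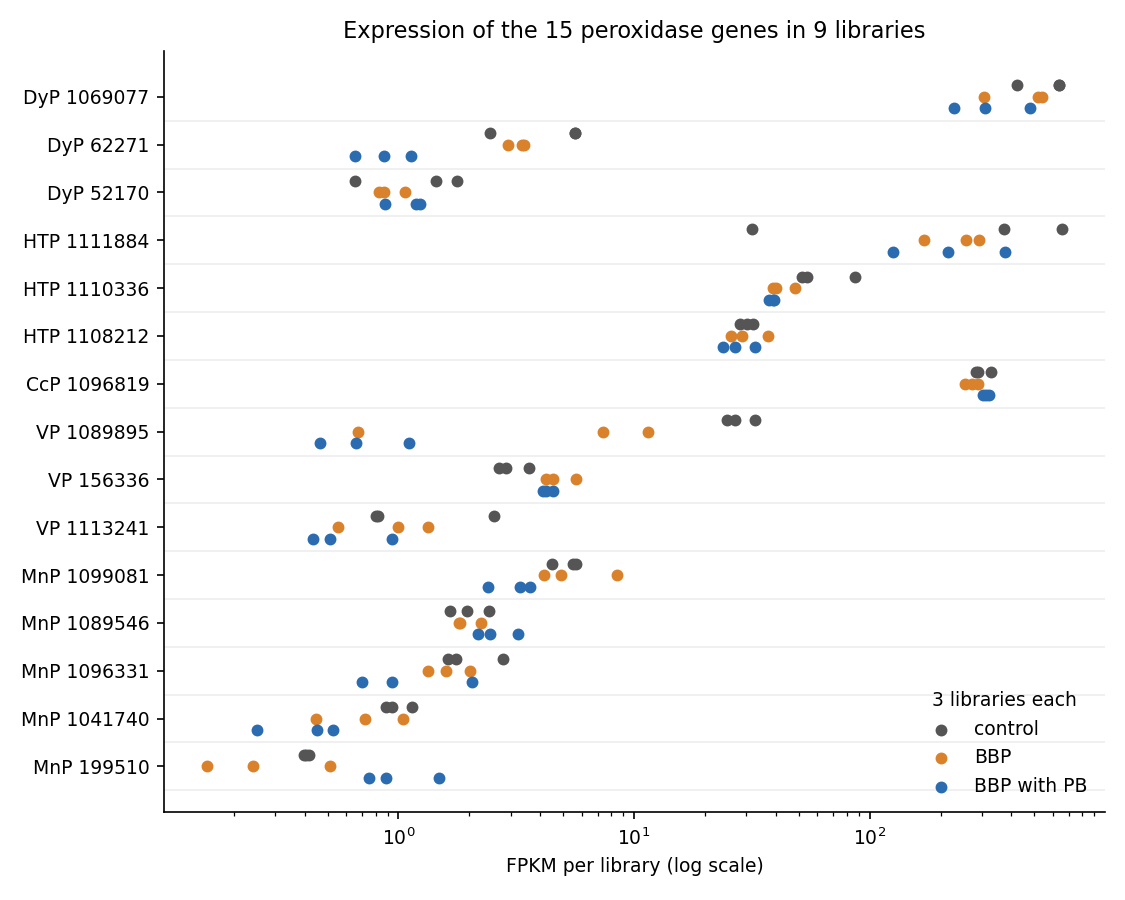
Level of each of the 15 peroxidase genes in each of the 9 libraries, in FPKM on a log axis, with points coloured by group. Genes are grouped by kind and sorted within each kind by their mean over the 9 libraries. A DyP-type gene, a heme-thiolate gene and cytochrome c peroxidase lie near the top of the scale in every group, while the versatile peroxidase PLEOSDRAFT_1089895 spans from 32.8 FPKM in a control library to 0.464 FPKM in a library with BBP and PB.

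Differences between groups are log2 fold changes from edgeR's quasi-likelihood test, given with their standard error (SE) and with p-values adjusted by the Benjamini-Hochberg method over the 9399 genes tested. A gene was called at an adjusted p under 0.05. The series describes its replicates as biological, and the p-values measure the spread between these cultures. With BBP alone, 1 of the 12 tested peroxidase genes was called higher and 0 lower against the control, where 10.1% of all tested genes were called higher and 8.33% lower (18.4% in either direction). Adding PB to BBP gave 0 higher and 2 lower against BBP alone, with 9.98% and 10.5% of all tested genes called in those directions (20.4% in either). BBP with PB against the control gave 1 higher and 3 lower, with 19.9% and 21.2% of all tested genes called (41.1% in either direction). When libraries were scaled by their totals alone, all genes divided into 1196 higher and 3183 lower in that comparison, against 1871 and 1994 here. FPKM values are likewise scaled by library totals, without the TMM factors used in the fit. Those factors were 0.982 to 1.129 in the controls, 0.983 to 1.015 with BBP and 0.918 to 0.942 with BBP and PB. Counted instead by FPKM libraries that did not overlap, BBP against control had 1 peroxidase gene higher and 2 lower, with 12.3% and 22.1% of all tested genes (34.3% in either direction). BBP with PB against BBP had 1 higher and 2 lower, with 15.6% and 29.7% (45.3% in either direction), and BBP with PB against control had 1 higher and 4 lower, with 17.1% and 40% (57.2% in either direction). For those 3 comparisons the median log2 fold change of the 12 genes was -0.21, -0.04 and -0.46, and that of all tested genes was -0.01, -0.01 and -0.04. At an unadjusted p under 0.05, edgeR had 2 peroxidase genes lower for BBP against control and 2 higher for BBP with PB against BBP, where DESeq2 also called 0. In either direction, 3227, 3239 and 4688 of the 9399 tested genes reached that p in edgeR, in the same order of comparisons. Of the 12 peroxidase genes, 8 were called in 0 comparisons, 1 in 1 and 3 in 2. The same count over all tested genes was not made, so nothing particular to the peroxidases is read from it. The comparisons share libraries and are not independent of one another.

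**Figure D2:**
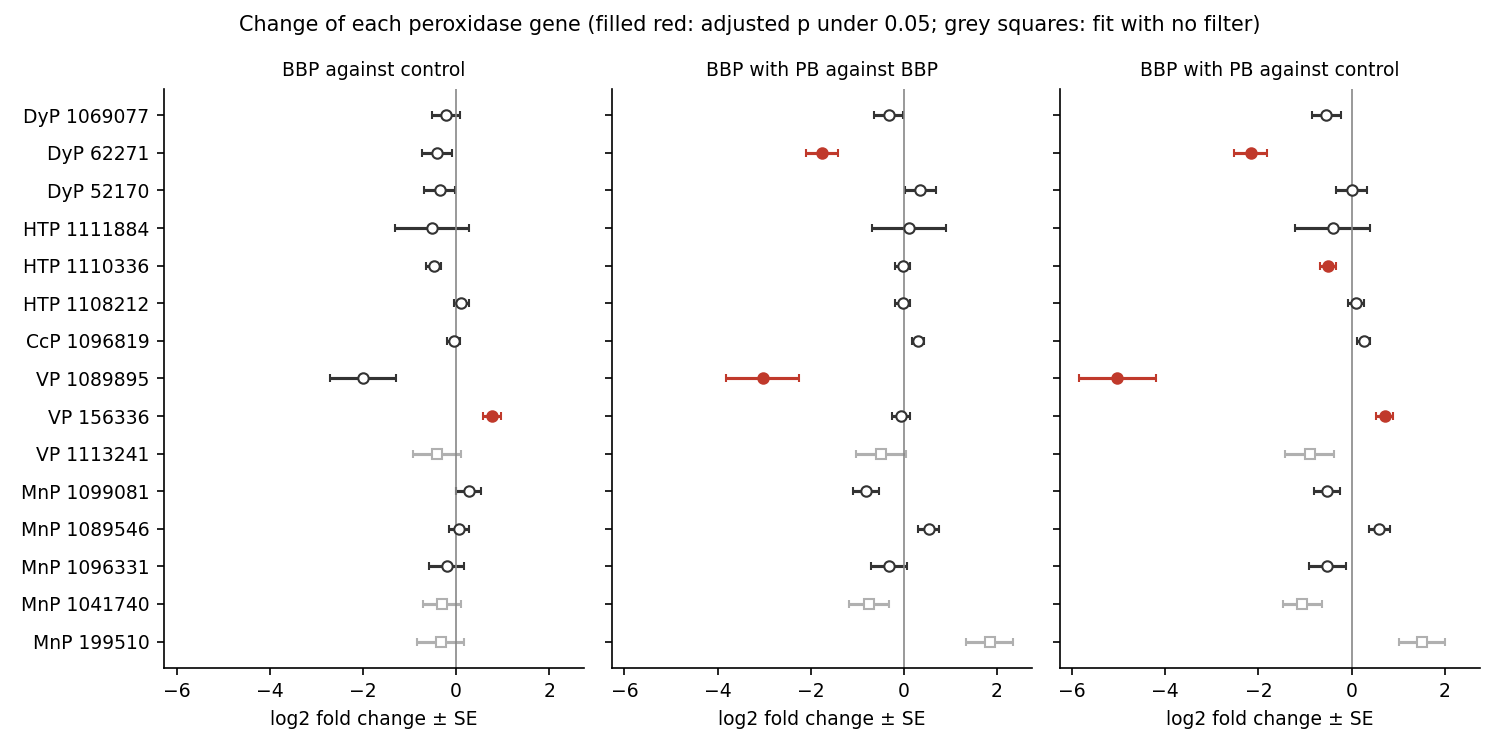
Log2 fold change of each peroxidase gene in the 3 comparisons, with bars of 1 SE, filled points for genes called at an adjusted p under 0.05 and grey squares for the 3 genes under the level filter, whose values come from a fit without it (VP, versatile; MnP, short manganese; HTP, heme-thiolate; CcP, cytochrome c). The versatile peroxidase PLEOSDRAFT_1089895 has the lowest value in each panel, reaching -5.03 for BBP with PB against the control, and PLEOSDRAFT_156336 lies at 0.77 and 0.71 in both comparisons with the control.

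Among the versatile peroxidases, PLEOSDRAFT_1089895 had the largest differences between groups. This gene had the highest level of the manganese and versatile peroxidases in the controls, and its description is taken from a versatile peroxidase of Pleurotus sapidus. It was at 26.9, 24.7 and 32.8 FPKM in the controls, at 7.42, 0.676 and 11.5 FPKM with BBP, and at 0.464, 1.107 and 0.662 FPKM with BBP and PB. The control libraries lay above all 6 treated libraries, while BBP replicate 2 fell within the range of the BBP with PB libraries. Against the control it fell by 5.03 on the log2 scale with BBP and PB (SE 0.831, adjusted p = 0.00119 in edgeR's quasi-likelihood test). Against BBP alone the difference was -3.03 (SE 0.779, adjusted p = 0.0225). This call was lost in edgeR when BBP replicate 1, BBP replicate 3 or any BBP with PB library was left out, with adjusted p from 0.051 to 0.0876, and in limma on log2(FPKM + 1), with a difference of -1.70 (adjusted p = 0.0625).

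For BBP alone against the control, PLEOSDRAFT_1089895 differed by -1.999 (SE 0.706) and was not called (edgeR adjusted p = 0.0754), although the libraries did not overlap. Its spread within the BBP group was wide. The SD of log2(FPKM + 1) there was 1.54, against a median of 0.174 over all tested genes, and 0.16% of genes had a larger one. Without BBP replicate 2 the difference was -1.46 and was called (edgeR adjusted p = 0.0162), and limma called it with that library included (-2.37, adjusted p = 0.0203, on log2(FPKM + 1)). BBP replicate 2 was at least 4 times lower than both other BBP libraries, on FPKM + 1, in 15 genes, or 0.16% of those tested.

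The versatile peroxidase PLEOSDRAFT_156336 went the other way. It was at 2.67, 3.59 and 2.85 FPKM in the controls, at 4.22, 4.53 and 5.64 FPKM with BBP and at 4.25, 4.52 and 4.103 FPKM with BBP and PB. Every treated library lay above every control library, and the ranges of the treated groups overlapped. It rose with BBP by 0.77 (SE 0.188, edgeR adjusted p = 0.0208) and with BBP and PB by 0.71 (SE 0.188, edgeR adjusted p = 0.0134) on the log2 scale, and the difference between the treated groups was -0.06 (SE 0.186, edgeR adjusted p = 0.854). The BBP call was lost without BBP replicate 3 (0.63, edgeR adjusted p = 0.0647) and when only those 2 groups were fitted (0.76, edgeR adjusted p = 0.0647). The BBP with PB call was lost when libraries were scaled by their totals alone (0.49, edgeR adjusted p = 0.0718) and in limma (0.40, adjusted p = 0.0635, on log2(FPKM + 1)).

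The remaining versatile peroxidase, PLEOSDRAFT_1113241, was at 0.803, 0.816 and 2.54 FPKM in the controls, 0.995, 0.553 and 1.34 FPKM with BBP and 0.434, 0.942 and 0.514 FPKM with BBP and PB. Its groups overlapped in every comparison, and it was under the filter. In a fit without the filter its differences were -0.41 (SE 0.516, BBP against control), -0.49 (SE 0.535, BBP with PB against BBP) and -0.90 (SE 0.53, BBP with PB against control), with edgeR adjusted p of 0.628, 0.578 and 0.211.

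**Figure D3:**
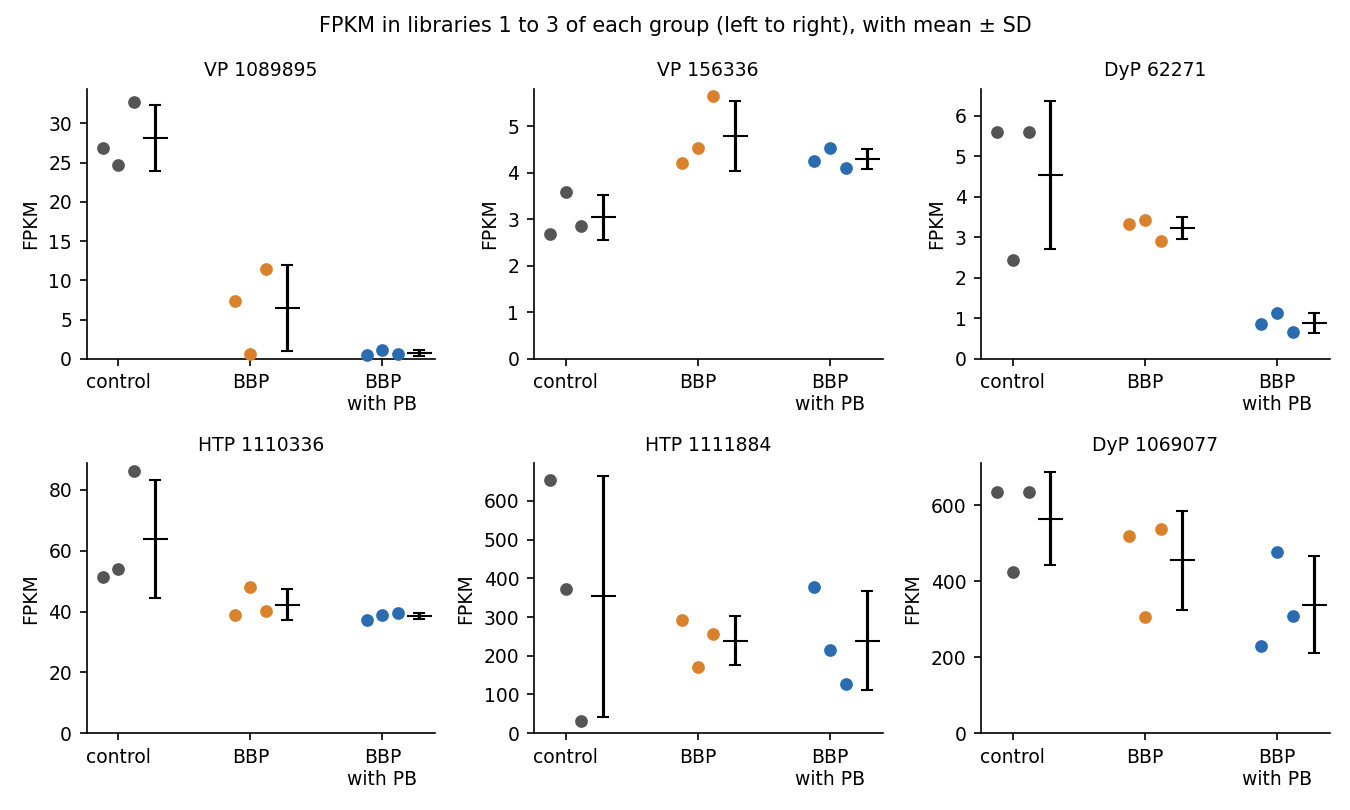
FPKM in each library of 6 peroxidase genes, one panel per gene with its own linear axis, points for libraries and bars for the mean and SD of each group of 3. Control libraries of PLEOSDRAFT_1089895 sit at 24.7 to 32.8 FPKM and its BBP with PB libraries at 0.464 to 1.107 FPKM, and 1 control library of the heme-thiolate gene PLEOSDRAFT_1111884 lies at 31.7 FPKM, far below the other controls.

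Of the 5 short manganese peroxidases, 0 of the 3 tested were called by edgeR in any comparison. At an unadjusted p under 0.05 edgeR had 1 higher and 1 lower for BBP with PB against BBP and 1 higher for BBP with PB against control, and DESeq2 called 1 lower in the first of these and 1 higher in the second. Of all 9399 tested genes, 3239 and 4688 reached that p in edgeR in these comparisons, in either direction. PLEOSDRAFT_1099081 had the highest control level of the short manganese peroxidases, at 4.49, 5.65 and 5.51 FPKM, against 4.88, 4.13 and 8.42 FPKM with BBP and 3.60, 2.41 and 3.27 FPKM with BBP and PB. The BBP with PB libraries lay below all others. Its difference from BBP alone was -0.80 (SE 0.279, edgeR adjusted p = 0.0697), and it passed the threshold without BBP replicate 2 (-1.0, edgeR adjusted p = 0.0284), with scaling by library totals (-0.91, edgeR adjusted p = 0.0463) and in DESeq2 (-0.80, adjusted p = 0.0297). Without BBP replicate 3, the highest BBP library, it was -0.42 (edgeR adjusted p = 0.238), and over the 17 alternative fits it ran from -1.0 to -0.42 with adjusted p (edgeR, DESeq2 or limma) from 0.0284 to 0.238.

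PLEOSDRAFT_1089546 was at 1.66, 2.42 and 1.96 FPKM in the controls, 1.80, 1.82 and 2.23 FPKM with BBP and 2.46, 3.21 and 2.18 FPKM with BBP and PB. The groups overlapped in part, and its difference between BBP with PB and control was 0.60 (SE 0.219, edgeR adjusted p = 0.052). That value passed the threshold without BBP with PB replicate 3 (0.72, edgeR adjusted p = 0.0486), with RLE size factors (0.61, edgeR adjusted p = 0.0481) and in DESeq2 (0.61, adjusted p = 0.0264). It was 0.37 when libraries were scaled by their totals alone (edgeR adjusted p = 0.221), 0.53 without control replicate 1 (edgeR adjusted p = 0.126) and 0.26 in limma on log2(FPKM + 1) (adjusted p = 0.248). PLEOSDRAFT_1096331 averaged 2.06 ± 0.639, 1.65 ± 0.342 and 1.23 ± 0.726 FPKM in control, BBP and BBP with PB, and its overlapping groups differed by at most 0.52 in size on the log2 scale (BBP with PB against control, -0.52, SE 0.389, edgeR adjusted p = 0.31). Without BBP with PB replicate 2, which at 2.06 FPKM was the highest of its group, this difference was -1.11 (edgeR adjusted p = 0.0315). Over its 17 alternative fits it ran from -1.11 to -0.24, with adjusted p (edgeR, DESeq2 or limma) from 0.0315 to 0.66.

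The short manganese peroxidases under the filter had 10 to 71 counts per library, so their values rest on few fragments. PLEOSDRAFT_199510 was the lowest of the 15 genes in the controls, at 0.405, 0.417 and 0.397 FPKM, and was at 0.513, 0.154 and 0.242 FPKM with BBP and at 0.752, 1.49 and 0.881 FPKM with BBP and PB. The BBP with PB libraries lay above all 6 others. Without the filter it was called higher with BBP and PB, by 1.84 against BBP (SE 0.498, edgeR adjusted p = 0.0297) and by 1.51 against the control (SE 0.486, edgeR adjusted p = 0.0335). In fits added after seeing the data, the call against BBP did not hold without BBP replicate 2, BBP replicate 3, BBP with PB replicate 2 or BBP with PB replicate 3, with edgeR adjusted p from 0.0629 to 0.126. The call against the control did not hold without any 1 of the 3 controls, BBP with PB replicate 2 or BBP with PB replicate 3, with edgeR adjusted p from 0.0585 to 0.142. PLEOSDRAFT_1041740 was at 0.884, 1.14 and 0.935 FPKM in the controls and at 0.251, 0.525 and 0.453 FPKM with BBP and PB, with BBP at 0.448, 0.722 and 1.05 FPKM overlapping both. The BBP with PB and control libraries did not overlap, and the difference was -1.06 (SE 0.422, edgeR adjusted p = 0.0747 without the filter).

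Summed over the 8 manganese and versatile peroxidases, which share their catalytic fold, the level was 43.2 ± 5.67 FPKM in the controls, 22.7 ± 9.29 FPKM with BBP and 14.1 ± 1.91 FPKM with BBP and PB (SD, n = 3 each). These FPKM sums carry no TMM scaling. The smallest p that an exact 2-sided permutation test can give for 3 against 3 libraries is 0.1, so no test is given for the sum. PLEOSDRAFT_1089895 alone held 61.0 to 68.2% of the summed level in the control libraries, 4.86 to 35.4% with BBP and 3.59 to 6.80% with BBP and PB. The 3 versatile peroxidases together went from 32.5 ± 4.89 to 12.3 ± 6.36 and 5.67 ± 0.788 FPKM, and the 5 short manganese peroxidases from 10.7 ± 1.41 to 10.5 ± 3.09 and 8.39 ± 1.13 FPKM. In rank among the 15 genes, PLEOSDRAFT_1089895 stood at position 6 in control and BBP and at 13 with BBP and PB, where PLEOSDRAFT_156336 held position 6. The libraries of PLEOSDRAFT_1089895 overlapped those at position 5 in the controls and those of every gene at positions 7 to 14 with BBP. With BBP and PB they overlapped those of every other gene from position 9 to position 15. Its exact position is therefore not resolved in any group, while PLEOSDRAFT_156336 stood apart from its neighbours with BBP and PB.

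**Figure D4:**
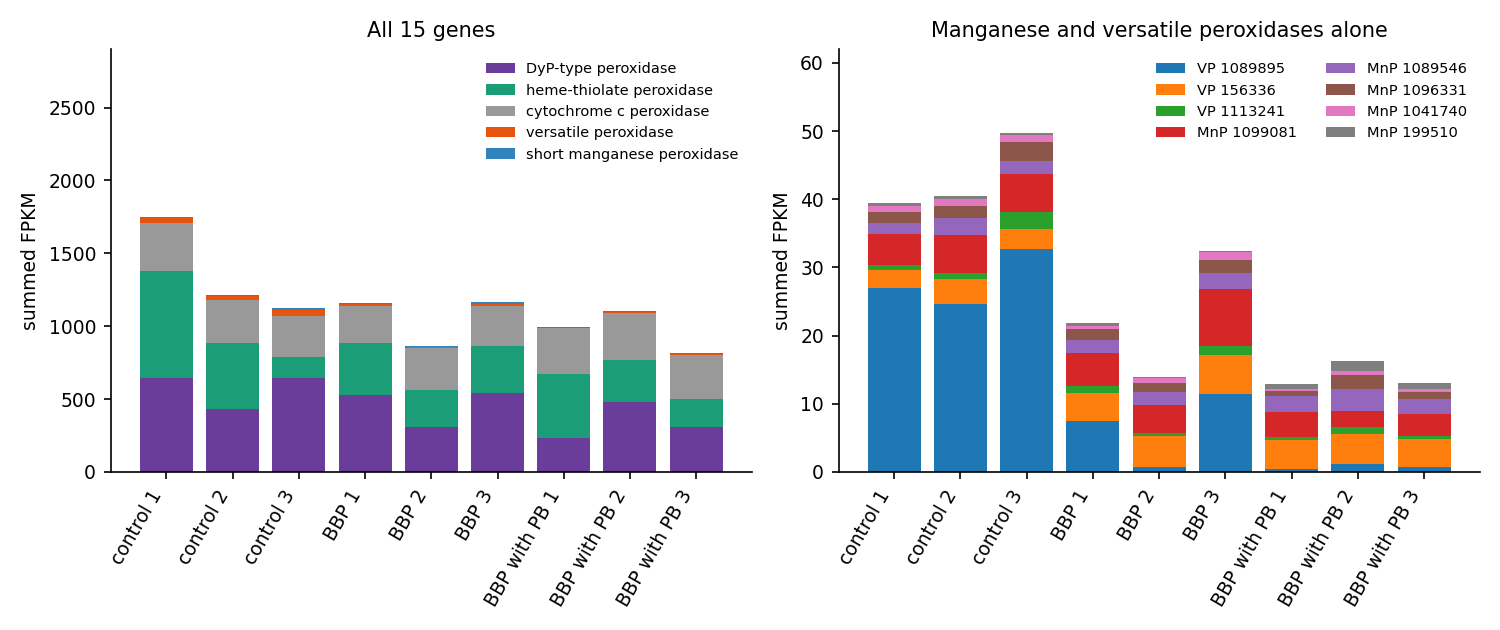
Summed FPKM in each library, stacked by kind of peroxidase for all 15 genes (left) and by gene for the 8 manganese and versatile peroxidases (right), with 3 libraries per group. The manganese and versatile peroxidases together give 2.26 to 4.44% of the summed peroxidase level in the controls and 1.29 to 1.59% with BBP and PB, and DyP-type, heme-thiolate and cytochrome c peroxidase genes hold the rest.

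Of the 3 DyP-type peroxidases, PLEOSDRAFT_62271 fell when PB was added and the others were not called. It was at 5.60, 2.44 and 5.61 FPKM in the controls, at 3.34, 3.43 and 2.91 FPKM with BBP, and at 0.865, 1.13 and 0.655 FPKM with BBP and PB. The BBP with PB libraries lay below all others, and those of control and BBP overlapped. The log2 difference was -1.76 against BBP (SE 0.352, edgeR adjusted p = 0.00752) and -2.17 against the control (SE 0.355, edgeR adjusted p = 0.00113), and both calls held in each of the 17 fits that tested this gene. With BBP alone the difference was -0.41 (SE 0.331, edgeR adjusted p = 0.412).

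The abundant DyP-type gene PLEOSDRAFT_1069077 was at 636, 424 and 635 FPKM in the controls, 521, 306 and 539 FPKM with BBP and 229, 478 and 309 FPKM with BBP and PB. The 3 groups overlapped. Its differences were -0.22 (SE 0.308) for BBP against control, -0.32 (SE 0.308) for BBP with PB against BBP and -0.54 (SE 0.309) for BBP with PB against control, with edgeR adjusted p of 0.651, 0.496 and 0.187. It made up nearly all of the DyP-type sum, which was 571 ± 124 FPKM in the controls, 459 ± 130 FPKM with BBP and 340.5 ± 128 FPKM with BBP and PB. The third gene, PLEOSDRAFT_52170, stayed near the filter at 0.653 to 1.78 FPKM in the controls, 0.825 to 1.06 FPKM with BBP and 0.878 to 1.23 FPKM with BBP and PB, with overlapping groups and differences of -0.35, 0.35 and 0.00 (SE 0.328, 0.331 and 0.327, edgeR adjusted p = 0.476, 0.486 and 0.998).

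Of the 3 heme-thiolate peroxidases, PLEOSDRAFT_1110336 was called lower with BBP and PB. It was at 51.5, 54.1 and 86.3 FPKM in the controls, 38.7, 48.0 and 40.0 FPKM with BBP and 37.3, 38.7 and 39.4 FPKM with BBP and PB. The controls lay above all 6 treated libraries, and the treated groups overlapped. The difference between BBP with PB and control was -0.51 (SE 0.169, edgeR adjusted p = 0.034), and it was lost without control replicate 3 (-0.28, edgeR adjusted p = 0.0669) and without any 1 of the BBP with PB libraries (edgeR adjusted p from 0.0786 to 0.0905). With BBP alone the difference was of like size, at -0.48 (SE 0.168), and was not called (edgeR adjusted p = 0.0721).

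The most abundant heme-thiolate gene, PLEOSDRAFT_1111884, had a wide spread between replicates. It was at 655, 373 and 31.7 FPKM in the controls, 292, 169.8 and 256 FPKM with BBP and 377, 214 and 126 FPKM with BBP and PB. Control replicate 3 was 20.7 times below control replicate 1. Its SD of log2(FPKM + 1) among the controls was 2.3, the rank 4 largest of the 9399 tested genes, where the median gene had 0.219. The groups overlapped and no difference was called (-0.52, SE 0.8, BBP against control; 0.11, SE 0.799, BBP with PB against BBP; -0.41, SE 0.8, BBP with PB against control; edgeR adjusted p = 0.682, 0.939 and 0.714). Without control replicate 3 the differences from the control were -1.07 with BBP (edgeR adjusted p = 0.122) and -0.95 with BBP and PB (edgeR adjusted p = 0.113). Control replicate 3 was at least 4 times lower than both other controls, on FPKM + 1, in 12 genes, or 0.128% of those tested. It was the highest control for PLEOSDRAFT_1110336. The third heme-thiolate gene, PLEOSDRAFT_1108212, averaged 30.2 ± 1.86, 30.4 ± 5.86 and 27.8 ± 4.46 FPKM over control, BBP and BBP with PB, with overlapping groups and log2 differences of 0.11, -0.03 and 0.09 (SE 0.169 each, edgeR adjusted p = 0.672, 0.929 and 0.715).

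The gene for cytochrome c peroxidase, PLEOSDRAFT_1096819, varied least in level of the 3 abundant peroxidases. It was at 329, 289 and 283 FPKM in the controls, 253, 287 and 271 FPKM with BBP and 312, 321 and 303 FPKM with BBP and PB. The BBP with PB libraries lay above the BBP libraries and overlapped the controls. Its differences were -0.06 (SE 0.13, edgeR adjusted p = 0.792) for BBP against control, 0.31 (SE 0.13, edgeR adjusted p = 0.122) for BBP with PB against BBP, and 0.26 (SE 0.13, edgeR adjusted p = 0.143) for BBP with PB against control. Without control replicate 1 the last was 0.40 and passed the threshold (edgeR adjusted p = 0.0205), and with scaling by library totals alone it was 0.05 (edgeR adjusted p = 0.726).

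The deposited table places the 15 genes on 8 of the 12 scaffolds that hold listed genes (scaffold names as deposited; the genome build is not given in the sources used here, and the descriptions name strain PC15). The versatile peroxidase PLEOSDRAFT_1089895 lies at KL198009.1, from 1701105 to 1704309 on the minus strand, and the weakly expressed versatile gene PLEOSDRAFT_1113241 lies on the same scaffold, from 1618102 to 1620009 on the plus strand, with 21 listed genes between them. Neither listed neighbour of PLEOSDRAFT_1089895 (PLEOSDRAFT_1043355 and PLEOSDRAFT_1043535) was called in any comparison. On KL198007.1 a short manganese peroxidase (PLEOSDRAFT_1096331, 186162 to 188472, plus strand), the versatile peroxidase that rose (PLEOSDRAFT_156336, 212622 to 214530, minus strand) and the abundant heme-thiolate gene (PLEOSDRAFT_1111884, 262016 to 262902, plus strand) lie with 11 and 12 listed genes between successive members. Of these 3, PLEOSDRAFT_156336 alone was called. The DyP-type gene PLEOSDRAFT_62271 lies at KL198012.1, from 213879 to 216064 on the plus strand, and its neighbour PLEOSDRAFT_1025941, 847 bp away and with no named function, moved the opposite way: it rose by 1.77 against BBP (edgeR adjusted p = 0.00687) and by 1.36 against the control (edgeR adjusted p = 0.0098) with BBP and PB. The manganese peroxidase PLEOSDRAFT_1099081 ends 92 bp from a superoxide dismutase gene on the opposite strand (PLEOSDRAFT_1091329, mean 132 FPKM over the 9 libraries), and since the strand setting of the counting is not given, reads of that pair cannot be told apart with certainty. Reads shared between members of similar sequence are uncertain in the same way.

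Some genes outside the set followed the called peroxidases closely over the 9 libraries, most of them with no named function. The libraries share the group differences, so these correlations of log2(FPKM + 1) are given as a description. The genes most like PLEOSDRAFT_1089895 were PLEOSDRAFT_1087897 (Pearson's r = 0.995, Spearman's rho = 0.95, n = 9 libraries), PLEOSDRAFT_1068875 (r = 0.990, rho = 0.933) and PLEOSDRAFT_1098006, a glycoside hydrolase of family 18 (r = 0.989, rho = 0.967), the family that holds chitinases. For the DyP-type gene PLEOSDRAFT_62271 they were a carbohydrate esterase of family 8 (PLEOSDRAFT_1061918, r = 0.956, rho = 0.883), PLEOSDRAFT_1027012 (r = 0.955, rho = 0.933) and PLEOSDRAFT_1099858 (r = 0.947, rho = 0.833). For PLEOSDRAFT_156336, PLEOSDRAFT_1089917 came first (r = 0.976, rho = 0.933), followed by PLEOSDRAFT_1103463 (r = 0.967, rho = 0.85) and PLEOSDRAFT_1070457 (r = 0.965, rho = 0.9). The heme-thiolate gene PLEOSDRAFT_1110336 was most like PLEOSDRAFT_1093342 (r = 0.987, rho = 0.833), PLEOSDRAFT_1091325 (r = 0.979, rho = 0.933) and PLEOSDRAFT_1110594 (r = 0.974, rho = 0.883). The most abundant peroxidase, PLEOSDRAFT_1069077, was most like PLEOSDRAFT_1088130 (r = 0.965, rho = 0.983), PLEOSDRAFT_1067754 (r = 0.922, rho = 0.867) and PLEOSDRAFT_1064671 (r = 0.904, rho = 0.917).

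Genes that supply or compete for the peroxidases' substrates, or make their cofactor, were described beside them. Their counts of calls stand beside the shares of all tested genes called higher and lower, which were 10.1% and 8.33% with BBP against control, 9.98% and 10.5% when PB was added to BBP, and 19.9% and 21.2% with both chemicals against control; with lists of 4 to 19 genes, nothing particular to a list is read from its counts. Enzymes that make hydrogen peroxide were sought by description or enzyme number, among them aryl-alcohol, glyoxal, galactose, copper radical, pyranose and glucose oxidases. No gene without the enzyme number of alcohol oxidase was found, and 10001 of the 10682 descriptions hold the words hypothetical protein. The 4 genes found, all annotated as alcohol oxidase, were tested. With BBP 1 was called higher and 0 lower, with PB added to BBP 1 higher and 1 lower, and with BBP and PB against the control 1 higher and 1 lower, with medians of 0.82, -0.40 and 0.09; none was lower with BBP at an unadjusted p under 0.05 (0 in edgeR and 0 called by DESeq2). The alcohol oxidase PLEOSDRAFT_1110004 rose from 0.32 ± 0.0875 FPKM in the controls to 21.3 ± 10.9 FPKM with BBP and 1246 ± 140 FPKM with BBP and PB (log2 difference 6.12, SE 0.471, edgeR adjusted p = 0.000136, BBP against control; 5.97, SE 0.441, edgeR adjusted p = 5.26e-05, BBP with PB against BBP). The alcohol oxidase PLEOSDRAFT_1109402 was at 116 ± 23.8, 183 ± 84.6 and 23.2 ± 5.16 FPKM in the same order and fell with BBP and PB (-2.88, SE 0.361, edgeR adjusted p = 0.00067 against BBP; -2.13, SE 0.351, edgeR adjusted p = 0.00116 against control).

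Of 10 other genes that remove peroxide or superoxide 9 were tested, and 4 were called higher and 1 lower with BBP, 1 higher and 0 lower with PB added, and 5 higher and 0 lower with BBP and PB against the control (medians 0.15, 0.15 and 0.50). At an unadjusted p under 0.05 edgeR had 0 and 1 lower in the last pair of comparisons, where DESeq2 called 0. The catalase gene PLEOSDRAFT_1090819, whose product splits hydrogen peroxide into water and oxygen, rose from 219 ± 41.4 FPKM to 649 ± 241 FPKM with BBP (1.67, SE 0.283, edgeR adjusted p = 0.00427) and was at 557 ± 104 FPKM with BBP and PB (1.56 against control, SE 0.282, edgeR adjusted p = 0.00199). The superoxide dismutase gene PLEOSDRAFT_1095940, whose product turns superoxide into hydrogen peroxide, rose from 978 ± 142 to 2054 ± 340 FPKM, by 1.18, with BBP (SE 0.164, edgeR adjusted p = 0.00174) and by 1.597 with BBP and PB against control (SE 0.165, edgeR adjusted p = 8.21e-05). The superoxide dismutase gene beside PLEOSDRAFT_1099081 rose when PB was added to BBP (0.34, SE 0.104, edgeR adjusted p = 0.0431).

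**Figure D5:**
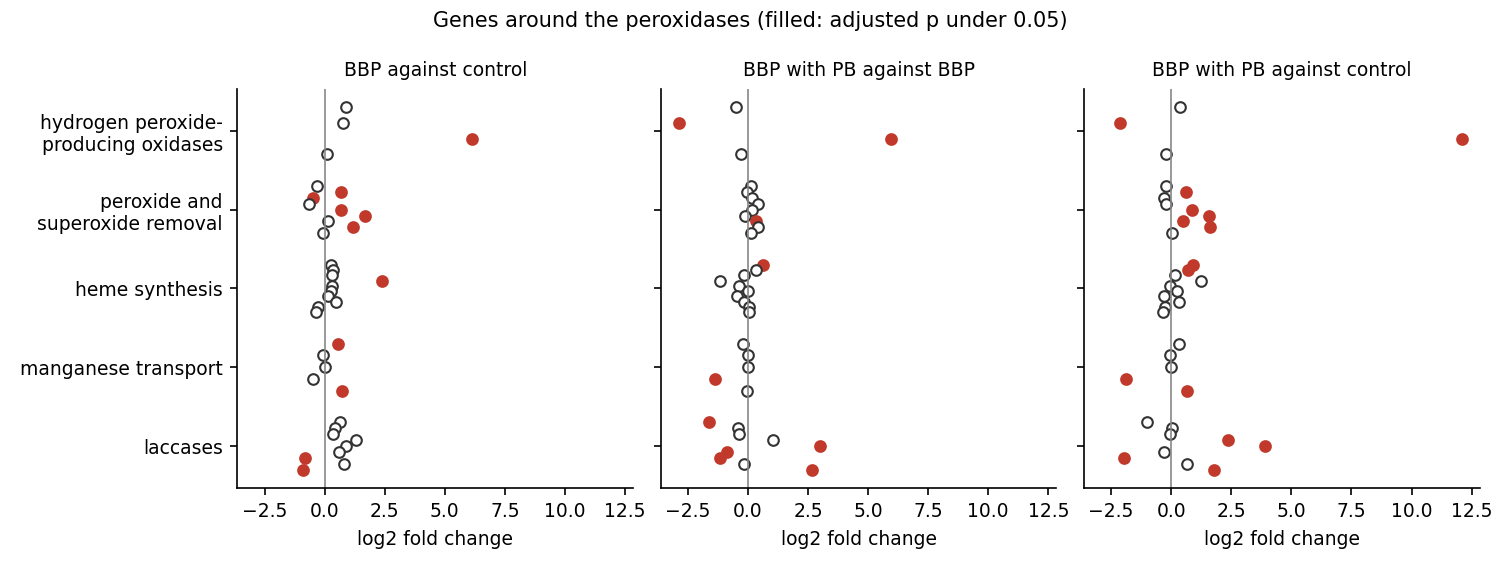
Log2 fold change of every tested gene of the lists around the peroxidases (oxidases, peroxide and superoxide removal, heme synthesis, manganese transport, laccases) in the 3 comparisons, with a point per gene, filled red where called at an adjusted p under 0.05. The alcohol oxidase PLEOSDRAFT_1110004 stands furthest to the right in each panel, at 12.1 for BBP with PB against control.

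Heme synthesis provides the cofactor of every enzyme in the set. All 10 of its listed genes were tested; 1 was called higher with BBP, 1 with PB added to BBP and 2 with BBP and PB against control, and 0 were called lower (medians 0.28, -0.08 and 0.19). At an unadjusted p under 0.05 edgeR had 1 lower in each comparison, and DESeq2 called 1 lower in both comparisons with the control and 0 in the other. Ferrochelatase, which inserts iron to form heme (PLEOSDRAFT_1056653), was at 18.8 ± 2.24 FPKM in the controls, 21.0 ± 3.44 FPKM with BBP and 30.5 ± 1.503 FPKM with BBP and PB (0.65, SE 0.147, edgeR adjusted p = 0.0132 against BBP; 0.91, SE 0.147, edgeR adjusted p = 0.00109 against control). Hydroxymethylbilane synthase (PLEOSDRAFT_1062348) rose from 39.8 ± 3.74 to 56.0 ± 3.22 FPKM with BBP and PB (0.71, SE 0.12, edgeR adjusted p = 0.00144). Of 3 genes annotated as coproporphyrinogen oxidase, the one with the lowest level (PLEOSDRAFT_1076958) rose from 0.518 ± 0.364 to 2.60 ± 1.17 FPKM with BBP (2.41, SE 0.532, edgeR adjusted p = 0.0137). The others, PLEOSDRAFT_1113876 at 14.7 ± 0.56 FPKM and PLEOSDRAFT_174499 at 11.2 ± 2.18 FPKM in the controls, were not called with BBP (0.49 and -0.28, edgeR adjusted p = 0.0546 and 0.215).

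Manganese is the substrate of the manganese peroxidases, and 5 genes carried ontology terms for its transport. With BBP 2 were called higher and 0 lower, with PB added 0 higher and 1 lower, and with BBP and PB against control 1 higher and 1 lower (medians 0.00, -0.05 and 0.00). In the directions with 0 calls, edgeR had 0 at an unadjusted p under 0.05 and DESeq2 called 0. PLEOSDRAFT_24093 rose from 238 ± 16.8 to 365 ± 29.0 FPKM with BBP (0.72, SE 0.109, edgeR adjusted p = 0.00259) and PLEOSDRAFT_1060454 from 227 ± 30.6 to 308 ± 34.6 FPKM (0.54, SE 0.122, edgeR adjusted p = 0.0147). PLEOSDRAFT_1111339 was at 33.8 ± 10.9, 22.1 ± 10.4 and 7.93 ± 0.806 FPKM and fell with BBP and PB (-1.38, SE 0.336, edgeR adjusted p = 0.0184 against BBP; -1.86, SE 0.34, edgeR adjusted p = 0.00205 against control).

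Laccases, copper oxidases that attack phenolic compounds with oxygen in place of hydrogen peroxide, were tested for 9 of 10 listed genes. With BBP 0 were called higher and 2 lower, with PB added 2 higher and 3 lower, and with BBP and PB against control 3 higher and 1 lower (medians 0.60, -0.38 and 0.02). At an unadjusted p under 0.05 edgeR had 3 higher with BBP, and DESeq2 called 0. The laccase PLEOSDRAFT_1113032 fell in every comparison, from 28.7 ± 5.00 FPKM in the controls to 15.4 ± 4.19 FPKM with BBP and 6.43 ± 0.963 FPKM with BBP and PB (-0.80, -1.15 and -1.95, edgeR adjusted p = 0.0406, 0.00862 and 0.000224). The laccase PLEOSDRAFT_51622 fell with BBP from 6.28 ± 2.57 to 3.14 ± 0.155 FPKM (-0.90, edgeR adjusted p = 0.0423) and rose with BBP and PB to 18.5 ± 2.28 FPKM (2.66 against BBP, edgeR adjusted p = 0.000237; 1.76 against control, edgeR adjusted p = 0.000694).

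The rule rests on the wording of the descriptions, which is incomplete. Of the 15 genes, 6 carry a gene ontology term for peroxidase activity, 9 carry no ontology term and 0 carry an enzyme number. A further 19 genes carry a peroxidase term or a peroxidase enzyme number under another description, mostly without a name, and 17 of them were tested. With BBP 4 of these were called higher and 3 lower, with PB added 0 (0 at an unadjusted p under 0.05 and 0 by DESeq2) and 3, and with BBP and PB against control 5 and 5. These include 4 of the genes already counted under peroxide and superoxide removal, which gave 3 of the higher and 1 of the lower calls with BBP and 3 of the higher calls with BBP and PB against control. Among the 5 tested ones with the plain term for peroxidase activity, 1 was called, PLEOSDRAFT_1034967, annotated as a prostaglandin synthase-type enzyme. It fell from 78.0 ± 77.3 FPKM to 10.9 ± 7.46 FPKM with BBP (-2.80, SE 0.753, edgeR adjusted p = 0.0299) and 5.38 ± 0.767 FPKM with BBP and PB (-3.72, SE 0.793, edgeR adjusted p = 0.00464), with a control SD nearly as large as its mean.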

How the data were processed

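RNA of mycelium was poly(A)-selected and made into libraries with dUTP in the second strand, per the labels' protocols. The submitters' processing notes name fastp, HISAT2 and StringTie, with no version; sources used here do not give the genome build or strand setting. The authors deposited raw read counts and FPKM values (scaled by length and depth) per gene. Counts were tested with edgeR 4.0.16 (quasi-likelihood test, TMM scaling, all 3 groups in 1 fit, no replicate block) on 9399 genes with a mean of at least 1 FPKM over the 9 libraries, in R 4.3.3. Alternatives were RLE or total-count scaling, no filter, a minimum of 5 FPKM, a replicate block, only the 2 groups compared, each library left out, DESeq2 1.42.0, and limma 3.58.1 on log2(FPKM + 1) or log2(FPKM + 0.1). Levels are FPKM, and the scripts were tested on simulated data. There, edgeR called 0 to 4 of 50 genes changed by 0.5 on the log2 scale and 33 to 36 of 50 changed by 1. At changes of 2 and 3 it called 47 to 50 of 50. A difference near 0.5 that was not called is therefore not shown to be absent. Every gene of the rule was named; of each related list, up to 2 called genes with the smallest adjusted p per comparison were named, and for each called peroxidase and the most abundant one the 3 genes with the highest Pearson correlation. Members and lists were chosen with earlier results of these data known. Against a RefSeq table of 11849 genes 0 identifiers matched, and no sequence is shown. Total counts of 38098599 to 49161706 left each peroxidase gene with 10 counts or more per library.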

Additional observations from a re-analysis of the deposited data

How the results depend on the processing

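The calls of PLEOSDRAFT_62271 (both comparisons) and of PLEOSDRAFT_1089895 for BBP with PB against control held in every fit that tested them, with log2 differences of -1.97 to -1.17, -2.47 to -1.50 and -5.44 to -4.07. The labels do not say that replicate numbers pair the samples. Deviations of same-numbered libraries correlated at -0.152 to 0.206, above 0.1 in 2 of 9 pairs. Those of other libraries correlated at -0.243 to 0.155, above 0.1 in 5 of 18 pairs. With 3 libraries per group, these values do not settle whether the samples were paired. With the replicate block the peroxidases called lower for BBP with PB against BBP came to 1, since PLEOSDRAFT_1089895 was at -2.71 (adjusted p = 0.069), and PLEOSDRAFT_1110336 was at -0.50 (adjusted p = 0.0506) against control. Among the peroxidases tested, for BBP against control 1 was called lower with total-count scaling and both limma fits, and 0 higher with a minimum of 5 FPKM or only the 2 groups. For BBP with PB against BBP 1 was lower with 5 FPKM or limma, and 1 higher with no filter. For BBP with PB against control 2 were higher with RLE, DESeq2 or no filter, and 0 with total-count scaling, 5 FPKM or limma. The minimum of 5 FPKM left the called genes PLEOSDRAFT_156336 (mean 4.04 FPKM) and PLEOSDRAFT_62271 (mean 2.89 FPKM) untested, so its counts leave them out. Over all genes, the main fits called 947 higher and 783 lower, 938 and 983, and 1871 and 1994. Only 2 groups gave 515 and 364 for BBP against control. Total-count scaling moved the median of all genes by -0.11, -0.11 and -0.22 and gave 684 and 1108, 621 and 1327, and 1196 and 3183; limma gave 657 and 1050, 653 and 1230, and 1248 and 3061 (+ 1), and for the last 1246 and 3063 (+ 0.1). The cause was not tested. Leaving out 1 library gave 0 to 1 higher and 0 to 1 lower peroxidases for BBP against control, 1 to 3 lower for BBP with PB against BBP, and 1 to 2 higher and 2 to 3 lower for BBP with PB against control; over all genes, 584 to 942 higher and 383 to 912 lower, then 515 to 1268 and 536 to 1193, then 1449 to 2004 and 1428 to 2165.

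Signs turned only in comparisons in which the gene was not called. With total-count scaling these were PLEOSDRAFT_1089546 (-0.05, BBP against control), PLEOSDRAFT_1111884 (-0.0039, BBP with PB against BBP), PLEOSDRAFT_1108212 (-0.13) and PLEOSDRAFT_52170 (-0.24, both BBP with PB against control). With limma at + 1 and + 0.1, BBP against control turned for PLEOSDRAFT_1089546 (-0.027 and -0.036), PLEOSDRAFT_1108212 (-0.0026 and -0.0031) and PLEOSDRAFT_1111884 (0.23 and 0.24), BBP with PB against BBP for PLEOSDRAFT_1111884 (-0.10 and -0.10), and BBP with PB against control for PLEOSDRAFT_1108212 (-0.13 and -0.13), PLEOSDRAFT_1111884 (0.12 and 0.13) and PLEOSDRAFT_52170 (-0.10 and -0.13). The block turned PLEOSDRAFT_1111884 (0.082 and -0.19), and no filter PLEOSDRAFT_52170 (-0.0093). Leaving out 1 library, values for BBP against control ran from -0.14 to 0.089 (PLEOSDRAFT_1096819), -1.07 to 0.41 (PLEOSDRAFT_1111884), -0.38 to 0.026 (PLEOSDRAFT_1096331), -0.41 to 0.0023 (PLEOSDRAFT_1069077), -0.049 to 0.22 (PLEOSDRAFT_1108212), -0.05 to 0.19 (PLEOSDRAFT_1089546), -0.11 to 0.47 (PLEOSDRAFT_1099081) and, with no filter and a choice made after seeing the data, -0.73 to 0.29 (PLEOSDRAFT_1113241). For BBP with PB against BBP they ran from -0.16 to 0.13 (PLEOSDRAFT_1108212), -0.085 to 0.070 (PLEOSDRAFT_1110336), -0.39 to 0.42 (PLEOSDRAFT_1111884) and -0.14 to 0.082 (PLEOSDRAFT_156336), and for BBP with PB against control from -0.95 to 0.52 (PLEOSDRAFT_1111884), -0.28 to 0.28 (PLEOSDRAFT_52170) and -0.056 to 0.19 (PLEOSDRAFT_1108212). Depth limits the genes under the filter, which had as few as 10 counts in a library.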
